A study of Mus musculus with 6 samples.

Results

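Transcripts of T cells and cytotoxic lymphocytes were examined in cells sorted from the mouse colon, through 8 listed genes: Cd3d, Cd3e, Cd3g, Cd2, Cd4, Cd8a, Lck and Nkg7. Every probe set whose only gene symbol is 1 of these names was taken, which gave 12 probe sets for 7 genes, of 34945 probe sets with 1 symbol and 45101 in all. Lck had no such probe set in the annotation used here and was not analysed here. A probe set is a group of short array probes that together report 1 transcript.

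The data hold 3 libraries labelled Mapt-EGFP+, described as colonic neurons, and 3 labelled Mapt-EGFP-, described as cells of the myenteric plexus, the nerve network in the muscular wall of the gut. All came from the strain Mapttm1(EGFP)Klt/J, in which EGFP is expressed from the locus of Mapt, the gene of the neuronal microtubule protein tau, and cells of both groups were separated by fluorescence. In every mouse, neurons that project to the celiac ganglion had been traced by an injection of fluorescent cholera toxin subunit B there, and the animals were killed 3 to 4 days later. Each library pools cells of 2, 4 or 6 mice, and the age, sex and zygosity of the mice are not stated in the labels. The sort used EGFP alone as far as the labels say, so leukocytes of the gut wall could enter both groups. Mapt was taken as a check of the labels, although whether its transcript follows EGFP in this strain was not tested. At its brightest probe set Mapt read 1.43, 1.32 and 5.55 (deposited log2 values) in EGFP-positive replicates 1, 2 and 3. The EGFP-negative replicates 1, 2 and 3 read 1.44, 1.64 and 1.38 there, so EGFP-positive replicates 1 and 2 did not stand above all of them. At a dimmer Mapt probe set EGFP-positive replicate 2, at 1.34, stood slightly above the EGFP-negative libraries (1.29 to 1.32). EGFP-positive replicate 3 was the highest library at each Mapt probe set. The comparison asks how transcripts of the libraries labelled EGFP-positive differ from those of the libraries labelled EGFP-negative.

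T cells recognise peptides through the T cell receptor, whose antigen-binding chains have no signalling tail of their own. Signals pass through the CD3 chains, encoded by Cd3d, Cd3e and Cd3g, which carry tyrosine motifs that the kinase Lck phosphorylates, and the co-receptors CD4 and CD8 bring Lck to the receptor when they bind MHC class II or class I. CD2 is an adhesion molecule of lymphocytes, among them T cells and NK cells, and NKG7 is a membrane protein of the cytotoxic granules of killer cells. In the gut wall, lymphocytes are most numerous in the mucosa, and the leukocytes of the muscle layer that holds the myenteric plexus are mainly macrophages.

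Cd3d, Cd3g, Cd2 and Nkg7 read lowest in EGFP-positive replicate 2 or 3 and highest in EGFP-negative replicates 2 and 3, while Cd3e, Cd4 and Cd8a stayed between 1.29 and 2.51 in all 6 libraries. The 7 genes averaged 1.74, 1.41 and 1.18 in EGFP-positive replicates 1, 2 and 3, against 1.97, 2.97 and 3.35 in EGFP-negative replicates 1, 2 and 3. Probe sets for TrpnX, a bacterial control transcript, read at most 1.48 on any array, which serves as the background level here. The array medians were 1.91 to 1.99 and the lower quartiles 1.35 to 1.46, so most probe sets of every array exceeded this level. At its brightest probe set, each of the 7 genes exceeded that background in every EGFP-negative library, which is therefore not a detection call. The lowest of these values, that of Nkg7 in EGFP-negative replicate 1, ranked above 27.7% of all probe sets. Only 3 of the 7 genes, Cd3d, Cd3g and Cd2, reached a log2 value of 4, in EGFP-negative replicates 2 and 3 alone. At the same probe sets, 2 of the 7 genes exceeded the background in EGFP-positive replicate 2 and 2 in EGFP-positive replicate 3, and 7 of 7 did in EGFP-positive replicate 1. In sorted bulk samples fewer T cells and less transcript per T cell cannot be told apart.

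**Figure D1:**
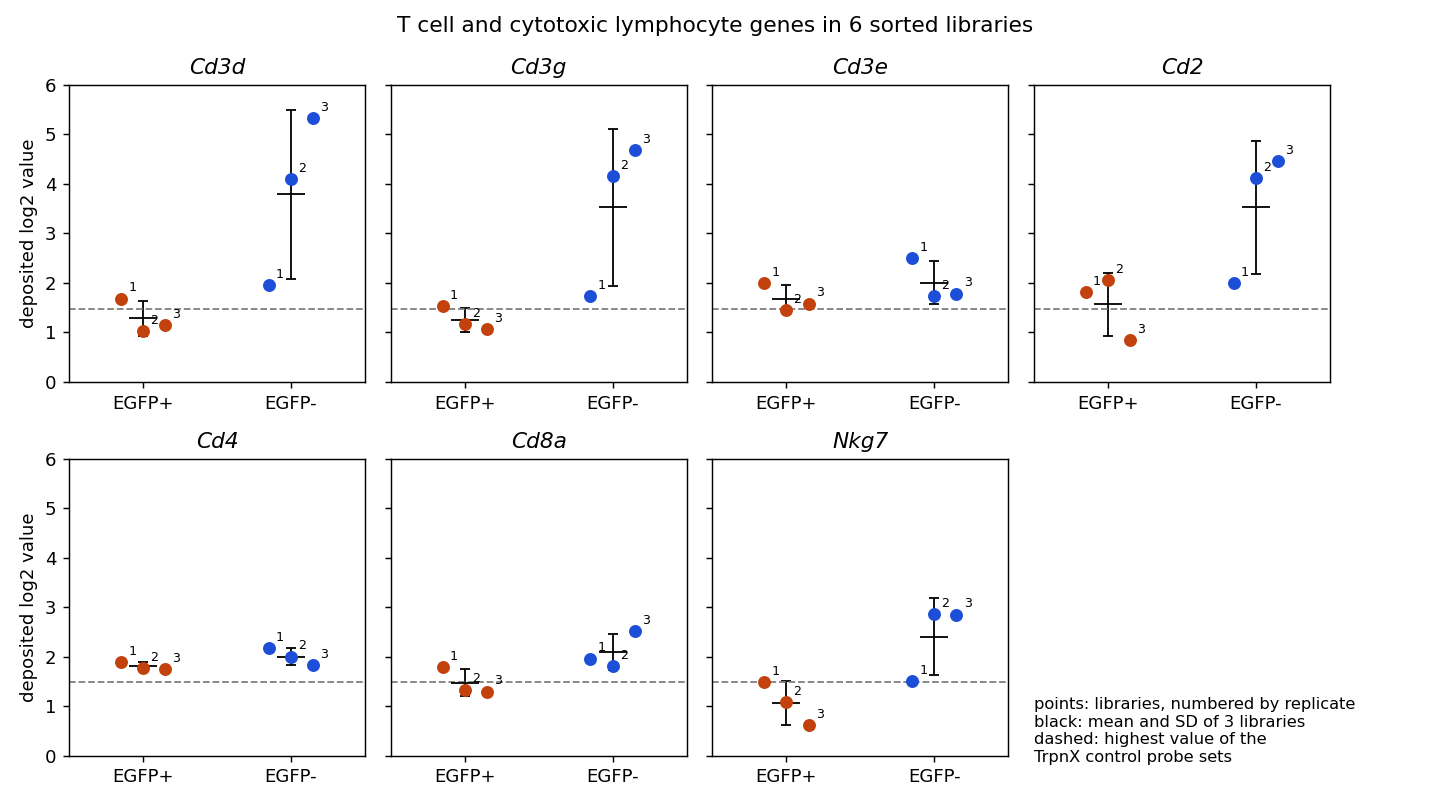
Deposited log2 values of the 7 measured genes, each at its brightest probe set. Each panel plots the 3 EGFP+ libraries left of the 3 EGFP- libraries, numbered by replicate, with the mean and SD (n = 3) and a dashed line at the highest TrpnX control value of 1.48. EGFP- replicates 2 and 3 stand above the other libraries for Cd3d, Cd3g, Cd2 and Nkg7, and EGFP- replicate 1 lies at 1.50 to 1.99 for these 4 genes.

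Cd3d, Cd3g and Cd3e, the genes of the CD3 delta, gamma and epsilon chains, lie side by side on mouse chromosome 9 with no other gene between them in the RefSeq gene table. Cd3d and Cd3g run in opposite directions from start sites that face each other, and Cd3e lies beyond Cd3d. Their promoters are shown because the 3 genes encode partner chains and lie together, while their probe sets gave log2 differences of -2.50 (Cd3d), -2.27 (Cd3g) and -0.33 (Cd3e), with intervals that overlap. RefSeq promoter windows (GRCm38.p6) of 300 bases, from 250 before to 50 after the start, matched 5 of the 7 genes (Cd3d, Cd3e, Cd3g, Cd8a and Nkg7). The windows are at chr9:44981536-44981835 (Cd3d, plus strand), chr9:44980382-44980681 (Cd3g, minus strand) and chr9:45009562-45009861 (Cd3e, minus strand), and 854 bases lie between the windows of Cd3g and Cd3d. Capitals mark matches to the E-box CANNTG, the ETS core AGGAAG, the RUNX core TGTGGT or the TATA sequence TATAAA, each searched on both strands, and no marked match overlaps another.
Cd3d: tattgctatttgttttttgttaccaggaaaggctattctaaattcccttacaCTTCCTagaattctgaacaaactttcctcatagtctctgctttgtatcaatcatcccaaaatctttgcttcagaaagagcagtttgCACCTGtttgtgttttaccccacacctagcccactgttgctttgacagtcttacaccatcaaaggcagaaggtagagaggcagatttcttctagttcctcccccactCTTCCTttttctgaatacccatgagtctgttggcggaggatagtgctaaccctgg
Cd3g: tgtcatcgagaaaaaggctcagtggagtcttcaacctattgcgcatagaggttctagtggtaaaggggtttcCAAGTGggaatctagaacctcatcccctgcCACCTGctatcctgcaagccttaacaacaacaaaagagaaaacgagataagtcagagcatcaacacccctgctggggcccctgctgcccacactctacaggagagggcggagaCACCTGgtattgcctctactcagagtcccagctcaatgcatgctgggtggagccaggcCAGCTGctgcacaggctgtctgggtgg
Cd3e: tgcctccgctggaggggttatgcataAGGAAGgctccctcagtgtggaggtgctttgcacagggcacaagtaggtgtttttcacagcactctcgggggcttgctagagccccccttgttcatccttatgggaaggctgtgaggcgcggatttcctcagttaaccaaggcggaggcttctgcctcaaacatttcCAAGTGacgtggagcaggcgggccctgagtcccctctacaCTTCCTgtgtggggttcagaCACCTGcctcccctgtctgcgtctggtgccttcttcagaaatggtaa
The E-box matched 1 time in the Cd3d window, 4 times in the Cd3g window and 2 times in the Cd3e window, and 72.3% of all 32851 promoter windows of this length hold at least 1. The ETS core matched 2 times for Cd3d, 0 times for Cd3g and 2 times for Cd3e, against 35.4% of all windows with a match. The RUNX core (16.8% of all windows) and the TATA sequence (13.6%) matched in 0 of these 3 windows. The windows of Cd3d and Cd3g differed in base composition, with 42.3% and 54.0% G or C, and that of Cd3e had 56.7%.

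Cd3d read 1.68, 1.03 and 1.15 in EGFP-positive replicates 1, 2 and 3, against 1.95, 4.09 and 5.33 in EGFP-negative replicates 1, 2 and 3. The groups did not overlap, although EGFP-positive replicate 1 and EGFP-negative replicate 1 lay only 0.27 apart. In EGFP-negative replicates 2 and 3 the gene ranked above 70.7% and 78.1% of all probe sets on its array, and in EGFP-positive replicates 2 and 3 above 3.04% and 9.29%. The log2 difference, EGFP-positive minus EGFP-negative, was -2.50 (SE 0.86, 95% interval -4.64 to -0.37). Its limma p was 0.0287 unadjusted, with a Benjamini-Hochberg adjusted p = 0.986 over 18193 genes, and so it did not pass the threshold of adjusted p 0.05.

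Cd3g read 1.54, 1.16 and 1.07 in the EGFP-positive libraries, against 1.73, 4.16 and 4.69 in the EGFP-negative libraries. Its groups did not overlap either, and EGFP-negative replicates 2 and 3 again stood apart from the other 4 libraries. The log2 difference was -2.27 (SE 0.79, limma unadjusted p = 0.0303, adjusted p = 0.986). Both genes were at or near background in the EGFP-positive libraries, which leaves the size of these differences uncertain. With values raised to the background level the log2 differences were -2.24 for Cd3d and -2.03 for Cd3g.

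Cd3e read 2.00, 1.45 and 1.58 in the EGFP-positive libraries, against 2.50, 1.73 and 1.78 in the EGFP-negative libraries. The groups overlapped, and the highest value was that of EGFP-negative replicate 1, where Cd3d and Cd3g were low. The log2 difference was -0.33 (limma SE 0.27, 95% interval -1.01 to 0.35), an interval that overlaps those of Cd3d and Cd3g (-4.23 to -0.31). Cd3e was represented by 1 probe set, which ranked above 44.9% and 45.6% of all probe sets in EGFP-negative replicates 2 and 3, so its transcript was not separated from the middle of the array there. A test of the difference between Cd3e and the other CD3 genes was not run, and the overlap of intervals does not replace it. Levels of different probe sets are also not on 1 scale.

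Cd2, the receptor that in mice binds CD48, read 1.81, 2.05 and 0.84 in the EGFP-positive libraries, against 1.99, 4.12 and 4.47 in the EGFP-negative libraries. The groups overlapped by a single value, since EGFP-positive replicate 2 lay above EGFP-negative replicate 1. The log2 difference was -1.96 (SE 0.73, limma unadjusted p = 0.0396, adjusted p = 0.986). Nkg7, the granule membrane gene, read 1.49, 1.08 and 0.61 in the EGFP-positive libraries, against 1.50, 2.86 and 2.85 in the EGFP-negative libraries. Its groups were separated by only 0.01 in the pair numbered 1, and its 2 highest values ranked above 62.4% and 61.3% of all probe sets. The log2 difference of Nkg7 was -1.35 (SE 0.45, limma unadjusted p = 0.0263, adjusted p = 0.986), and -0.92 with values raised to the background level.

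The co-receptor genes were dim in every library. Cd4, whose product binds MHC class II and is also made by some myeloid cells, read 1.90, 1.77 and 1.75 in the EGFP-positive libraries, against 2.18, 2.00 and 1.82 in the EGFP-negative libraries at its brighter probe set. The groups overlapped, with a log2 difference of -0.19 (limma 95% interval -0.53 to 0.14), and the other Cd4 probe set gave -0.05. In that other probe set EGFP-positive replicates 1 and 3 held the same deposited value. Of all probe sets on the arrays, 25.5% held an equal value in at least 2 of the 6 libraries. Cd8a, the gene of the CD8 alpha chain, read 1.78, 1.33 and 1.29 in the EGFP-positive libraries, against 1.96, 1.81 and 2.51 in the EGFP-negative libraries at the brightest of its 5 probe sets. These groups did not overlap, and the log2 difference was -0.62 (SE 0.24, limma unadjusted p = 0.0457, adjusted p = 0.999).

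The 5 Cd8a probe sets did not give 1 answer. Besides 1425335_at, described above, 1444078_at had a log2 difference of -0.33 (limma 95% interval -0.82 to 0.16) and 1451673_at one of -0.11 (-0.68 to 0.46), both with overlapping groups. The probe sets 1440164_x_at and 1440811_x_at had differences of 0.04 and 0.08 and read 0.75 to 1.22 in all 6 libraries, at or below the control background. When the probe sets of a gene were averaged, the Cd8a difference was -0.19, against -0.62 at the brightest probe set. Over the 12 probe sets, 0 passed in the fit of 34945 probe sets, where 0.0% of all were called (limma adjusted p 0.853 to 0.999 for the 12).

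**Figure D2:**
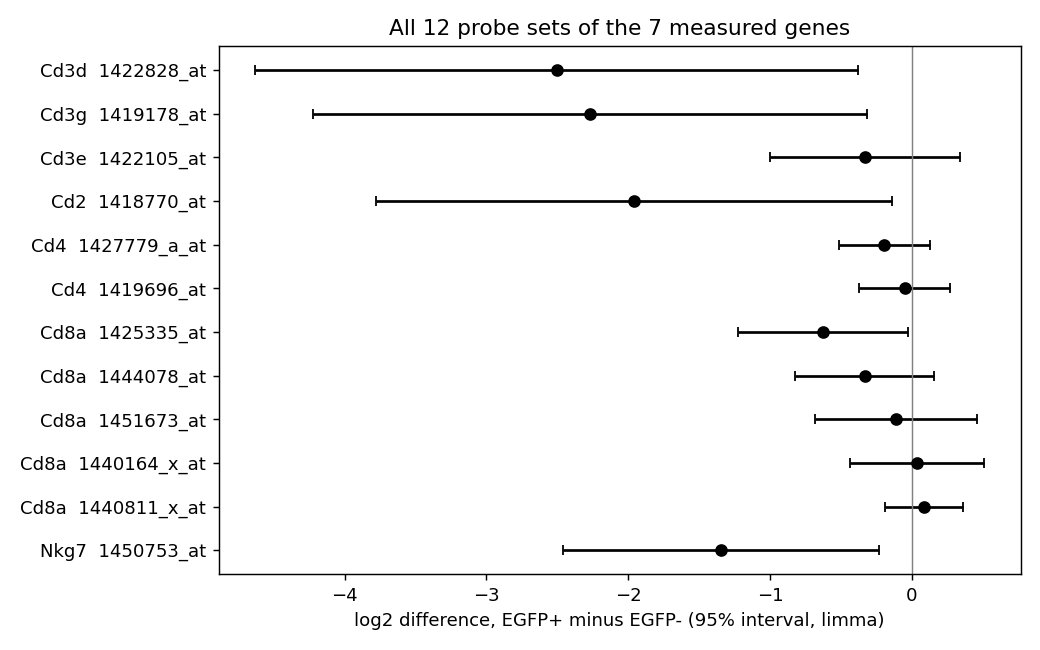
Log2 difference, EGFP+ minus EGFP-, of each of the 12 probe sets with its 95% interval from the limma fit over probe sets. The points of Cd3d, Cd3g, Cd2 and Nkg7 lie between -2.50 and -1.35, and the 5 Cd8a probe sets lie between -0.62 and 0.08.

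As a group the genes were lower in the EGFP-positive libraries by direction, without a call. All 7 differences were below 0, as were 53.6% of all genes, and the median log2 difference was -1.35, against -0.02 over all 18193 genes. Of the 7 genes, 4 had groups that did not overlap with the EGFP-positive libraries lower (6.04% of all genes), 5 had an unadjusted limma p under 0.05 in that direction (3.43% of all genes), and 4 had a log2 difference of -1 or lower (2.36% of all genes). Over all genes limma called 0 at adjusted p 0.05 (0.0%), with 893 at an unadjusted p under 0.05. With the replicate number as a block, 1345 genes and 2 of the 7, Cd3d and Cd3g, had an unadjusted p under 0.05 (4.54% of all genes in the lower direction), and 0 passed after adjustment. EGFP-positive replicates 1 and 2 did not stand above all EGFP-negative libraries at the brightest Mapt probe set. Without these 2 libraries the 7 differences were below 0. That fit rests on 1 EGFP-positive array, which is assumed to vary like the EGFP-negative libraries.

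The differences of Cd3d, Cd3g, Cd2, Cd8a and Nkg7 were larger in the pairs numbered 2 and 3 than in the pair numbered 1, and those of Cd3e and Cd4 were not. In the pair numbered 1 the log2 differences of the 7 genes ran from -0.51 to -0.01, with Cd3e at the lower end and Nkg7 at the upper. In the pair numbered 2 Cd3d, Cd3g, Cd2 and Nkg7 had differences of -3.06, -3.00, -2.07 and -1.79, and in the pair numbered 3 they had -4.18, -3.62, -3.63 and -2.24. Cd8a had -0.18, -0.48 and -1.22 in the pairs numbered 1, 2 and 3. Cd3e and Cd4 were largest in the pair numbered 1, with -0.51, -0.28 and -0.20 for Cd3e and -0.28, -0.23 and -0.07 for Cd4. All 7 genes were lower in the EGFP-positive library of each of the 3 pairs, as were 16.2% of all genes. EGFP-negative replicate 1 was also the library with the smallest number of probe sets over log2 6, at 6182, against 7135 to 7621 in the other 5 libraries, and the part of this in the low T cell values was not tested. Without EGFP-negative replicate 1 the log2 difference of Cd3d was -3.42, and without EGFP-negative replicate 3 it was -1.74.

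**Figure D3:**
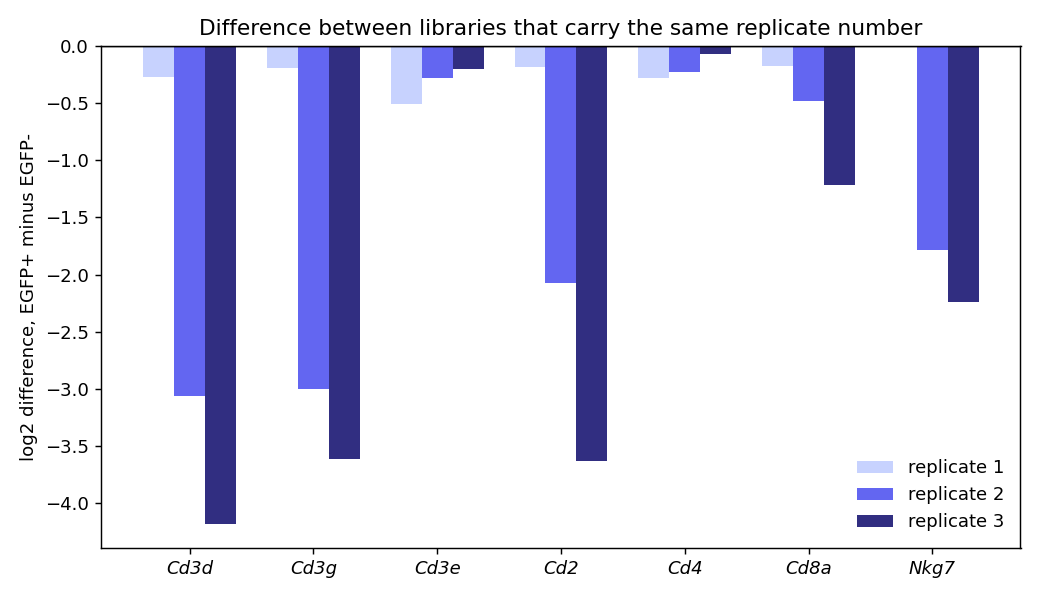
Log2 difference, EGFP+ minus EGFP-, between libraries that carry the same replicate number, for the 7 genes. Bars start at 0, and all of them lie below it, with those of replicate 1 between -0.51 and -0.01 and those of replicate 3 reaching -4.18 for Cd3d.

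Other genes of the T cell receptor complex and its signalling were taken from a list of 25, of which 19 were measured. This list and those below were drawn up with earlier results of these data known. None passed over all genes, and 17 of the 19 had a difference below 0. Groups that did not overlap were found for 8 with the EGFP-positive libraries lower (6.04% of all genes) and 0 with them higher (3.07%). The list median was -0.43. Lcp2, an adaptor downstream of the T cell receptor that myeloid cells also use, had the lowest difference and read 2.04, 1.12 and 1.18 in the EGFP-positive libraries, against 3.18, 6.01 and 4.64 in the EGFP-negative libraries. Fyn, a Src family kinase of many cell types including neurons, had the highest and read 6.34, 6.83 and 7.17 in the EGFP-positive libraries, against 6.03, 6.79 and 6.63 in the EGFP-negative libraries. Cd247, the CD3 zeta chain, Zap70, the kinase it recruits, and Cd8b1, the CD8 beta chain, are described after their values were seen. Cd247 stayed between 1.31 and 2.29, Zap70 between 1.69 and 2.17, and Cd8b1 between 1.50 and 1.60 apart from 3.11 in EGFP-negative replicate 3.

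Surface molecules and transcription factors of T cells were mostly dim. Of 14 measured surface molecules 12 had a difference below 0, with a median of -0.25, and 1 reached a log2 value of 4 in any library. That gene was Thy1, which neurons and fibroblasts also make, and it read 8.97, 8.69 and 8.10 in the EGFP-positive libraries, against 9.08, 8.90 and 8.35 in the EGFP-negative libraries (chosen after its values were seen). Cd69, an early activation marker, read 1.60, 1.06 and 1.34 in the EGFP-positive libraries, against 1.64, 2.55 and 3.10 in the EGFP-negative libraries, the lowest difference of the list at -1.10. The highest was that of Cd226, an activating receptor of T and NK cells, at 0.09. Of 10 measured transcription factors 9 had a difference below 0, with a median of -0.52. Ikzf3, a factor of B and T lymphocytes, read 1.35, 0.75 and 0.86 in the EGFP-positive libraries, against 1.39, 3.53 and 4.14 in the EGFP-negative libraries, and Foxp3, the factor of regulatory T cells, stayed between 1.17 and 1.53.

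Cytotoxic effector and NK cell genes had a median log2 difference of -0.45 over 18 measured genes, 15 of them below 0. Of these, 7 had groups that did not overlap with the EGFP-positive libraries lower (6.04% of all genes), and 0 passed over all genes. Ccl5, a chemokine of cytotoxic and memory T cells, read 2.30, 1.38 and 0.98 in the EGFP-positive libraries, against 2.30, 6.76 and 5.86 in the EGFP-negative libraries. Fasl, the death ligand of killer cells, stayed between 0.93 and 1.24. Of the granule genes, described after their values were seen, Gzma read 1.65, 1.05 and 0.95 in the EGFP-positive libraries, against 1.43, 4.88 and 3.28 in the EGFP-negative libraries. Gzmb read 1.26, 0.94 and 1.02 in the EGFP-positive libraries, against 1.64, 4.38 and 2.09 in the EGFP-negative libraries. Prf1, the pore-forming protein of the same granules, stayed between 1.37 and 1.61. Gzma, Gzmb and Ccl5 had their highest value in EGFP-negative replicate 2, whereas Cd3d, Cd3g and Cd2 had theirs in EGFP-negative replicate 3, an order over single libraries that was not tested.

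Of the cytokine receptor and homing genes 10 were measured, and all 10 had a difference below 0, with a median of -0.79. The groups of 5 did not overlap, with the EGFP-positive libraries lower (6.04% of all genes). Itgb7, the integrin chain that guides lymphocytes to the gut, read 2.44, 1.21 and 1.47 in the EGFP-positive libraries, against 3.04, 4.13 and 4.23 in the EGFP-negative libraries. Il2ra, the inducible chain of the interleukin-2 receptor, had the highest difference of this list at -0.20 and stayed between 1.25 and 1.68. The 8 listed ligands of CD2, CD4 and CD8 did not all read in 1 direction, with 6 differences below 0, 2 above 0 and a median of -1.50. Cd48, the mouse ligand of CD2, read 2.51, 0.71 and 0.77 in the EGFP-positive libraries, against 4.58, 6.96 and 5.90 in the EGFP-negative libraries, the lowest difference of the 8 measured ligands (log2 -4.49, SE 0.78, limma adjusted p = 0.951). The MHC class II chain genes H2-Aa, H2-Ab1 and H2-Eb1, described after their values were seen, had differences of -2.65, -2.77 and -3.05. The class I heavy chain gene H2-D1 had the highest difference at 0.19 and read 10.39, 10.69 and 10.11 in the EGFP-positive libraries, against 9.78, 10.69 and 10.16 in the EGFP-negative libraries.

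Over the 6 lists together, 79 of 92 genes were measured, and 13 were not analysed here. Of the 79, 69 had a difference below 0, 35 had groups that did not overlap with the EGFP-positive libraries lower and 0 with them higher, 25 had an unadjusted limma p under 0.05 as lower, and 0 passed after adjustment. The same shares over all genes are 53.6% for a difference below 0, 6.04% and 3.07% for groups that do not overlap and 3.43% for an unadjusted p. Since the lists were drawn up with earlier results of these data known, these counts are a description and not a test. In all, 26 of the 79 reached a log2 value of 4 in at least 1 library.

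**Figure D4:**
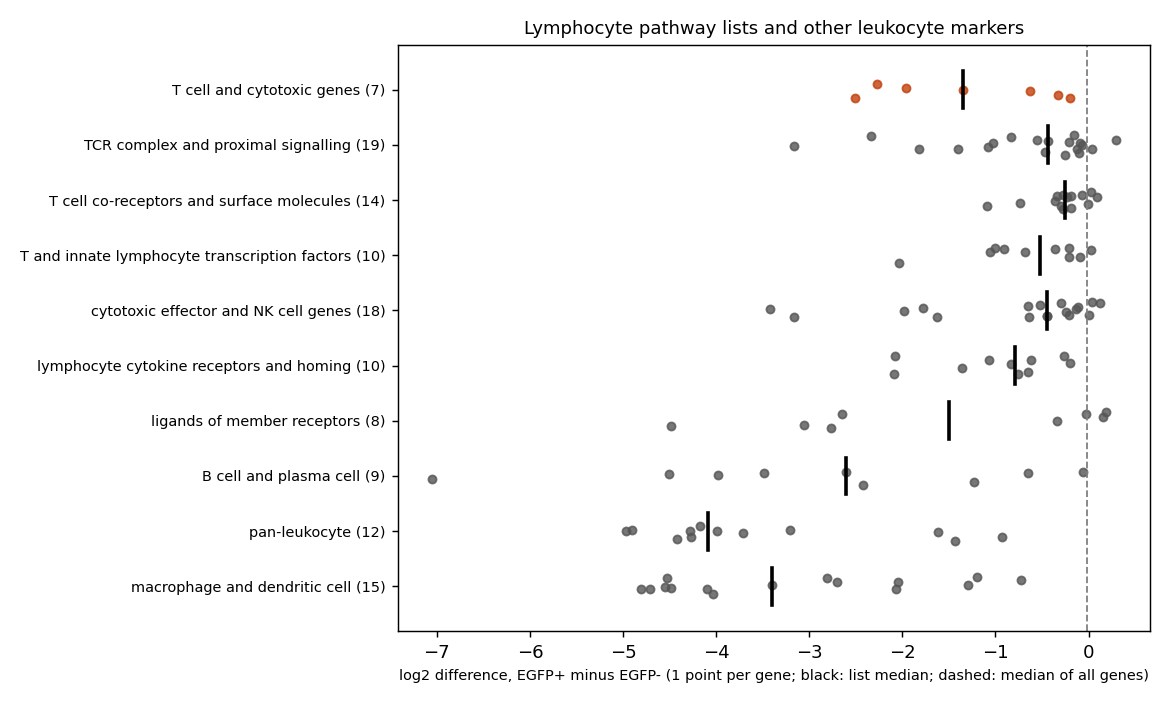
Log2 difference, EGFP+ minus EGFP-, of each measured gene in 10 lists, with the list median in black and the median of all genes (-0.02) as a dashed line. The T cell and cytotoxic genes have a median of -1.35, the 5 lists of lymphocyte signalling, surface, transcription factor, cytotoxic and homing genes have medians from -0.79 to -0.25, and the pan-leukocyte list has a median of -4.08.

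Pan-leukocyte, B cell and plasma cell, and macrophage and dendritic cell markers were lower in the EGFP-positive libraries as well, and 0 of them passed over all genes. All 12 pan-leukocyte genes had groups that did not overlap, with the EGFP-positive libraries lower (6.04% of all genes). Their linear values, 2 to the power of the deposited value, summed to 104 to 628 in the EGFP-positive libraries, against 2420 to 2965 in the EGFP-negative libraries. Such sums give most weight to the brightest genes of a list. Ptprc, the leukocyte antigen CD45 that T cells also carry, read 4.17, 1.45 and 2.21 in the EGFP-positive libraries, against 5.34, 8.53 and 8.88 in the EGFP-negative libraries (chosen after its values were seen). Of the 9 measured B cell and plasma cell genes, 8 had groups that did not overlap, with the EGFP-positive libraries lower (6.04% of all genes). The sums of the 9 were 18.9 to 32.3 in the EGFP-positive libraries, against 75.8 to 1520 in the EGFP-negative libraries. Of the 15 macrophage and dendritic cell genes 8 did so (6.04% of all genes), with sums of 142 to 2396 in the EGFP-positive libraries, against 2197 to 7775 in the EGFP-negative libraries. The 7 T cell and cytotoxic genes summed to 16.4 to 23.6 in the EGFP-positive libraries, against 28.1 to 108 in the EGFP-negative libraries. In EGFP-positive replicates 1, 2 and 3, 7, 2 and 2 of these genes exceeded the background, as most probe sets do, and 0 reached a log2 value of 4. The EGFP-positive sums therefore lie near the background level. The part of the other leukocytes in the values of Cd2, Cd4 and the shared signalling genes was not tested.

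By library, the macrophage list averaged 5.41, 2.95 and 2.09 in EGFP-positive replicates 1, 2 and 3, against 6.90, 7.33 and 5.71 in EGFP-negative replicates 1, 2 and 3. Over the EGFP-positive libraries it had the same order as the T cell and cytotoxic genes (1.74, 1.41 and 1.18), and over the EGFP-negative libraries, where these genes averaged 1.97, 2.97 and 3.35, replicate 3 was the lowest for the macrophage list and the highest for the T cell and cytotoxic genes. The pan-leukocyte list averaged 4.56, 2.22 and 2.60 in the EGFP-positive libraries, against 5.85, 6.90 and 7.11 in the EGFP-negative libraries. The B cell and plasma cell list averaged 1.72, 1.02 and 1.04 in the EGFP-positive libraries, against 2.47, 4.43 and 5.55 in the EGFP-negative libraries. Over EGFP-negative replicates 1, 2 and 3 both of these lists had the same order as the T cell and cytotoxic genes. Orders over single libraries were not tested.

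**Figure D5:**
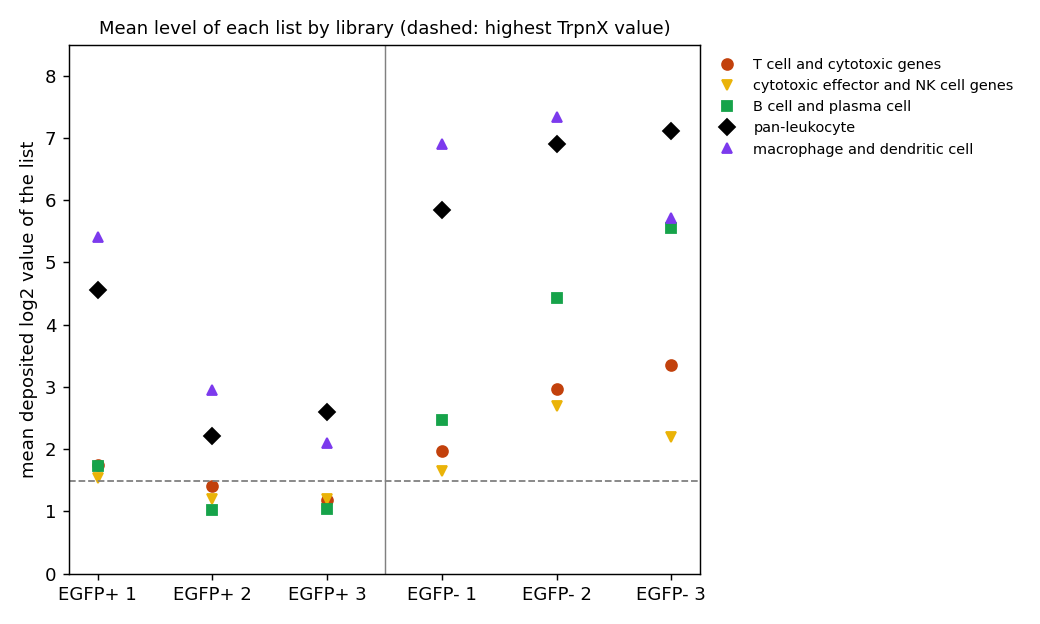
Mean deposited log2 value of 5 gene lists in each library, EGFP+ left of the line and EGFP- right of it, with the highest TrpnX value as a dashed line. In EGFP- replicate 1 the macrophage list stands at 6.90 and the T cell and cytotoxic genes at 1.97, and in EGFP- replicate 3 they stand at 5.71 and 3.35.

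Markers of mast cells, which are also leukocytes, and of cells other than leukocytes gave these values beside the T cell genes. The 6 mast cell genes had 4 differences below 0, 2 above 0 and a median log2 difference of -0.12. Of these 6, 1 had groups that did not overlap, with the EGFP-positive libraries lower (6.04% of all genes). The mast cell sums were 16.3 to 19.2 in the EGFP-positive libraries, against 19.9 to 35.0 in the EGFP-negative libraries. Fcer1a and Ms4a2, 2 of the 6 (named after their values were seen), were at or below the control background in all 6 libraries. Of 7 neuronal genes 0 had groups that did not overlap, with sums of 180 to 972 in the EGFP-positive libraries, against 149 to 219 in the EGFP-negative libraries, and the sum of 972 was that of EGFP-positive replicate 3. Of 5 enteric glia genes 3 did, with the EGFP-positive libraries higher (3.07% of all genes), at sums of 475 to 1896, against 163 to 338 in the EGFP-negative libraries. Of 6 epithelial genes 0 did, at sums of 977 to 5301 in the EGFP-positive libraries, against 1204 to 2463 in the EGFP-negative libraries. The 3 red blood cell genes summed to 8.09 to 10.5 in the EGFP-positive libraries, against 8.02 to 68.7 in the EGFP-negative libraries, with the highest sum in EGFP-negative replicate 2.

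The genes whose pattern over the 6 libraries lay nearest to the mean of the 7 genes were Pstpip1, Hebp1, Lsp1, Fes and Smap2. Nearness was the root mean square difference between log2 values centred on their mean over 6 libraries, among 9485 genes that reached a log2 value of 4, and it was 0.24 for Pstpip1 and 0.28 for Smap2. Pstpip1, an adaptor of the leukocyte cytoskeleton, read 3.00, 2.37 and 1.99 in the EGFP-positive libraries, against 2.96, 3.50 and 4.00 in the EGFP-negative libraries. Lsp1, an actin-binding protein of leukocytes, read 7.83, 7.89 and 7.65 in the EGFP-positive libraries, against 8.43, 8.87 and 9.32 in the EGFP-negative libraries. Hebp1 read 3.86, 3.93 and 3.55 in the EGFP-positive libraries, against 3.84, 4.88 and 5.37 in the EGFP-negative libraries. Fes read 3.08, 3.14 and 2.55, against 3.98, 4.54 and 4.51, and Smap2 read 3.67, 3.90 and 3.81, against 3.90, 5.35 and 5.37, in the same order. Pstpip1, Hebp1, Fes and Smap2 reached a log2 value of 4 in EGFP-negative libraries alone. With 6 libraries many genes can lie this near, and the likeness is a description.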

How the data were processed

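RNA of 6 pooled, sorted cell samples was measured on 1-colour Affymetrix mouse arrays from about 50 ng of total RNA, per the labels' protocols. The authors deposited log2 expression values, and the submitters' processing notes name RMA without a version or settings. The log2 scale was read from the values (0.05 to 15.2), and the arrays do not share 1 distribution. Of 45101 probe sets, 64 were controls, 932 had several gene symbols in the platform annotation, 9160 had none and 34945 had 1, and 0 symbols were updated from the RefSeq table. A gene was represented by its probe set with the highest mean (18193 genes).

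Tests used the R package limma 3.58.1 (R 4.3.3), with lmFit and eBayes (two-sided, Benjamini-Hochberg over all genes, and over all probe sets in a second fit), checked on simulated data. Tables and plots used pandas 2.3.3 and matplotlib 3.10.9 under Python 3.11.15. The number of arrays, 3 a group, limits the precision, and p-values measure the spread between pooled libraries. The main fits compared the groups without a block, so their SEs, intervals and p-values do not use pairing. Replicate numbers paired the libraries only for the differences between same-numbered libraries and for the replicate block, an alternative fit. These uses were made because same-numbered libraries deviated together from their group means over genes (correlations 0.36, 0.32 and 0.42). The genes studied and the lists were chosen with earlier results of these data known. Named were all 8 genes, Mapt, the highest and lowest member of each of 6 lists, and the 5 nearest patterns. Other genes in the text were chosen after their values were seen, as is said beside them. Alternatives covered normalisation, dim genes, background, variance model, array weights, the replicate block, the choice of probe set and each library left out.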

Additional observations from a re-analysis of the deposited data

How the results depend on the processing

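Of the alternatives, 12 (13 for Cd8a) could move a gene's log2 difference, and the 7 genes had one below 0 under each of these. None of the 7 passed under any alternative, with the smallest adjusted p at 0.13 (limma, Cd3g, without both libraries numbered 1, an alternative added after seeing the data). Over all genes and over all probe sets limma called 0. It called 2 in each fit with values raised to the background level (Mefv and Vac14), and leaving out each library in turn gave 0 to 2, the 2 being Ccr2 and Fermt3 without EGFP-positive replicate 1, all 4 named after their values were seen. With the replicate block the count of calls was 0 in both fits.

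The 4 genes whose groups did not overlap (6.04% of all genes, lower) became 3 with quantile normalisation and 3 with probe sets averaged (6.79% and 6.16%). Smaller groups overlap less often by construction: they were 7 without EGFP-positive replicates 1 and 2 (29.2% of all genes), 7 without both libraries numbered 1 (21.8%), and 4 to 6 when each library was left out (9.14% to 15.1%). Only 3 genes pass the filter on dim genes, through the EGFP-negative libraries where they are high, so the counts under it, 2 without overlap and 3 with an unadjusted p under 0.05, support nothing. In the main limma fit 5 genes had an unadjusted p under 0.05, as did 893 of all 18193 genes in either direction. These 5 became 0 with values raised to the background level (826 of all genes) and 2 with the replicate block (1345 of all genes). They became 0 to 4 when each library was left out (616 to 1258 of all genes). They were 2 without EGFP-positive replicate 1, 0 without EGFP-positive replicate 2, EGFP-positive replicate 3 or EGFP-negative replicate 3, and 1 without EGFP-negative replicate 2. Fewer libraries entered these fits, and the cause under the other settings was not tested. When each library was left out, the log2 difference of Cd3d ran from -3.42 to -1.74, that of Cd3g from -3.17 to -1.69, that of Cd2 from -2.73 to -1.49 and that of Nkg7 from -1.80 to -1.12. The filter on dim genes left no value for Cd3e, Cd4, Cd8a and Nkg7. Signal near the background limits what the arrays can show for Cd3e, Cd4 and Cd8a in all 6 libraries.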
